A study of Caenorhabditis elegans with 4 samples.

Results

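NHR-23 sites on chromosome IV of the nematode Caenorhabditis elegans were examined in L3 larvae. They were chosen by chromosome alone, as the rows of the authors' combined peak list that name chromosome IV. These were 895 rows, of which 2 repeated the coordinates of another row, leaving 893 distinct regions out of 6142 in the whole list. The study used chromatin immunoprecipitation with sequencing (ChIP-seq), in which DNA crosslinked to a chosen protein is pulled down and read, and a peak is a region where such reads pile up. Hermaphrodites of strain OP43 carry the unc-119(ed3) mutation and the transgene wgIs43, which holds both nhr-23::TY1 EGFP FLAG and unc-119. They were grown at 20 °C, fixed with 2% formaldehyde and treated with an anti-GFP antibody. The labels describe 2 ChIP samples and 2 Input samples, the Input being chromatin kept back before the pull-down. Input values were not analysed here. The protein recovered was therefore the tagged product of a transgene put in by bombardment, in whole larvae rather than in 1 tissue, and the labels do not say whether the replicates came from separate cultures.

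NHR-23 is a nuclear hormone receptor, related to DHR3 of Drosophila and to the ROR receptors of mammals. It is made in the epidermis in pulses that accompany each larval moult, and larvae that lack it fail to shed and rebuild the cuticle properly. On the autosomes of C. elegans, genes needed in most cells and conserved genes lie mainly in the central region, and meiotic crossovers fall mainly in the arms. Chromosome IV also carries most of the genes for 21U-RNAs, the piRNAs of the worm germline, in broad clusters. Neither nhr-23 nor unc-119 lies on it.

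Positions are those of the files, in genome build WS220. No genome sequence or gene annotation of that build was used here, so the sites below are given by position and rank, without genes or bases. Each row carries a running peak number, and a low number marks a strong peak. On chromosome IV the combined number followed those of the replicates, with Spearman's rho of 0.841 for replicate 1 and 0.889 for replicate 2 across sites. Of the replicate lists, the one from ChIP replicate 1 held 4539 distinct regions on chromosome IV out of 29981, and that from ChIP replicate 2 held 3810 out of 25124. How many reads the lists rest on is unknown.

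The strongest sites of chromosome IV stood near the head of every list. The first, IV:4749905-4750232, carried number 3 in the combined list and numbers 5 and 1 in replicates 1 and 2. Next came IV:654762-655078, with numbers 4, 3 and 5 in these lists, and IV:13240515-13240817, with numbers 9, 10 and 13. After these 3 the chromosome held no other site before number 36. That site, IV:17249726-17250007 near the right end, carried numbers 54 and 29 in the replicates. IV:1659119-1659393 had number 53 in the combined list and numbers 78 and 39 in the replicates.

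A group of 3 sites with nearly equal combined numbers followed. IV:6323713-6323998 was number 65 (71 and 94 in the replicates). IV:2602004-2602339 was number 66 (79 and 75). IV:1094217-1094505 was number 69 (95 and 81). The replicates placed these 3 sites close to each other as well.

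The last 4 of the first 12 were less evenly placed. IV:14464101-14464370 was number 83 (128 and 67), and its centre differed by 0.5 bp between the replicates, the closest match among the 12. IV:10936011-10936363 was number 84 but stood at 196 in replicate 1 and at 44 in replicate 2. IV:4445763-4446020 was number 89 (99 and 121). IV:15471454-15471719, number 92, leaned the other way, at 53 in replicate 1 and 201 in replicate 2. Across the first 12 sites the centres of the replicate peaks lay 0.5 to 24 bp apart.

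The chromosome held its share of strong sites. It had 3 of the first 10 sites of the genome, 12 of the first 100 and 153 of the first 1000 (15.3%, exact 95% interval 13.1 to 17.7), against 14.5% of all sites. Cutting the combined list into 4 equal parts by peak number put 230, 222, 217 and 224 chromosome IV sites in them, from the strongest part to the weakest. The median peak number was 3056 on chromosome IV and ranged from 2961 (X) to 3160 (II) elsewhere. In the strongest part stood 25.8% of the chromosome IV sites (22.9 to 28.8) and 24.9% of the sites elsewhere (23.7 to 26.1). These intervals overlap, and they cover counting error only.

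For its length the chromosome held fewer sites than the rest of the genome. It carried 51.1 sites per Mb over a span of 17475574 bp, taken as ending where the last peak of any list ends, against 63.4 per Mb on the other nuclear chromosomes together. The ratio was 0.806 (95% interval 0.75 to 0.865, exact two-sided binomial test, p = 1.01e-09, adjusted p = 3.02e-09 over 3 tests). Of the 6 nuclear chromosomes, only V was lower in the combined list, at 46.3 per Mb. In the full replicate lists, too, V alone was lower than IV. Replicate 1 had 260 peaks per Mb on IV, above 233 on V and below 287 to 389 on the others. Replicate 2 had 218 on IV, above 184 on V and below 251 to 329. The test takes sites as independent, although they lie in clumps, so its p is too small. With whole chromosomes as the unit, 1 chromosome against 5 cannot give a p below 0.167.

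Along the chromosome the sites were not evenly spread. Of 17 full windows of 1 Mb, the fullest held 87 sites and the emptiest 17, with a mean of 51.7 ± 19.4 (SD over windows). The variance was 7.30 times the mean, where independent, evenly scattered sites would give about 1. This ratio ran from 4.04 (X) to 13.1 (V) on the other chromosomes. On the other chromosomes 80 such windows had a mean of 63.6 ± 24.5 and ran from 8 to 122.

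From the left end, the first 4 windows were alike, with 50, 49, 42 and 45 sites. Windows 5 and 6, from 4000001 to 6000000, held 64 and 62. Window 7, from 6000001 to 7000000, then fell back to 34 sites. It was the lowest of the first 15 windows.

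Windows 8 to 12 formed the dense middle of the chromosome. They held 68, 85, 65, 61 and 87 sites. Window 9 (8000001 to 9000000) and window 12 (11000001 to 12000000) were the fullest. Of the 80 windows on other chromosomes, 18 held at least as many sites as window 9 and 15 at least as many as window 12, so the peaks of chromosome IV were matched elsewhere.

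To the right the counts declined. Windows 13, 14 and 15 held 44, 35 and 49 sites. Window 16, from 15000001 to 16000000, had 17 and window 17 had 22. The last 475574 bp, which make a short window 18, had 14. Elsewhere in the genome 1 of 80 full windows held 17 sites or fewer, and 5 held 22 or fewer. Both replicates showed the same dips, which is in large part built in, because the combined list was made from them. In the full lists window 7 had 172 peaks in replicate 1 and 132 in replicate 2, between 259 and 283 peaks (replicate 1) or 244 and 257 (replicate 2) in the windows beside it. Window 16 had 119 and 67 peaks, the fewest of the full windows in either list.

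**Figure D1:**
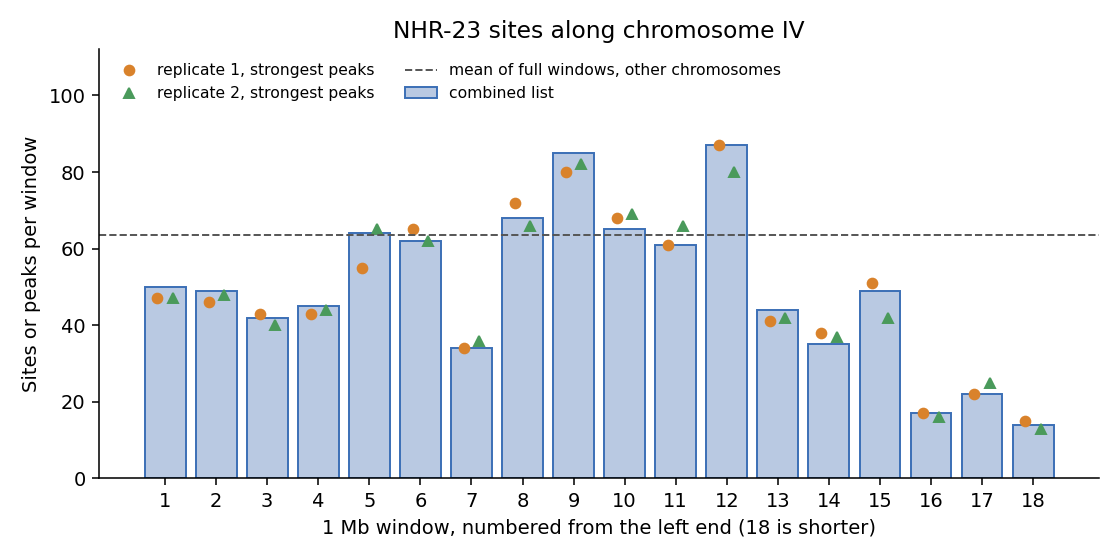
Number of distinct regions whose centre falls in each consecutive 1 Mb window of chromosome IV, numbered from the left end. Bars show the combined list, points the 6142 strongest nuclear peaks of each replicate, and the dashed line the mean of 63.6 sites in full windows of the other chromosomes. Windows 9 and 12 stand highest with 85 and 87 sites, window 7 dips to 34, and windows 16 and 17 hold 17 and 22.

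With the span cut into 3 equal lengths, a left, a central and a right part, the central part held 376 sites (64.5 per Mb), the left part 302 (51.8 per Mb) and the right part 215 (36.9 per Mb). The central part had 1.45 times the density of the outer parts (1.27 to 1.66, exact binomial adjusted p = 7.71e-08). The left part had 1.40 times as many sites as the right (1.18 to 1.68, exact binomial adjusted p = 1.50e-04). That excess depended on the division. With a single division at the midpoint, the left side held 1.14 times as many sites as the right, which did not pass (exact binomial p = 0.0609). All these tests take the clumped sites as independent, so their p-values are too small and their intervals too narrow.

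Other chromosomes were not all skewed to the left. The left to right ratio was 1.59 on V and 1.01 on I, and it was 0.583 on II, 0.832 on III and 0.846 on X. Whether chromosome IV differs from them in this was not tested. The right part of chromosome IV, at 36.9 per Mb, was the second lowest of the right parts, above 27.4 on V and below 56.2 to 74.7 on the other 4. Its central part, at 64.5 per Mb, was the lowest of the 6 central parts, which reached 95.8 on III. A denser centre was not particular to chromosome IV. The central to outer ratio was 1.43 on I, 1.55 on II, 1.44 on III, 1.92 on V and 1.02 on X, against 1.45 on IV.

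The full replicate lists, which hold weaker peaks beside the strong ones, were divided in the same way. The full list of replicate 1 had a central to outer ratio of 1.09 (1.03 to 1.16), and that of replicate 2 had 1.30 (1.22 to 1.39). The interval of replicate 1 lies below that of the combined list, and that of replicate 2 overlaps it. Their left to right ratios were 1.46 (1.35 to 1.57) and 1.39 (1.28 to 1.51). No difference between the lists was tested. In windows 8 to 12 there were 22.2 to 27.5 combined sites for every 100 peaks of replicate 1, and in windows 1 to 4 there were 13.8 to 17.4. Against replicate 2 the corresponding figures were 23.1 to 26.7 and 18.3 to 24.8. Other windows outside the centre were as high. Window 15 had 25.7 against replicate 1 and 26.9 against replicate 2, and windows 16 and 17 had 25.4 and 25.9 against replicate 2 but 14.3 and 15.2 against replicate 1.

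Strength was compared between the 3 parts of the chromosome. The median peak number was 2840 in the left part, 3212 in the central part and 3082 in the right part. The shares in the strongest part of the combined list were 24.5% (19.8 to 29.8), 26.1% (21.7 to 30.8) and 27.0% (21.2 to 33.4), with overlapping intervals. Of the first 500 sites of the genome, 25 were in the left part of chromosome IV, 27 in the centre and 17 in the right part. Window 16, with the fewest sites of the full windows, had the lowest median number among all 18 windows, 2122, and 7 of its 17 sites were in the strongest part.

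Spacing on chromosome IV was wide at the long end and ordinary at the short end. Between neighbouring centres the median distance was 6376 bp, the second longest of the 6 chromosomes after I (6714 bp), with 5221 bp on X the shortest. The upper quartile, 26131 bp, was the longest of the 6, where the others ran from 16697 bp (III) to 24942 bp (V). The lower quartile, 1869 bp, lay within the range of the others, 1580 to 2028 bp. Distances over 100 kb made up 3.03% of those on chromosome IV, 3.93% on V and 0.667 to 1.36% on the other 4. There were 27 of them on chromosome IV, and together they took up 3.89 Mb, or 22.3% of the length between the first site and the last.

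A neighbour within 1 kb was found for 178 sites, or 19.9% (17.4 to 22.7), against 22.0% (20.9 to 23.1) elsewhere, with overlapping intervals. Of the 892 distances, 14 were at most 250 bp, 4 lay between 250 and 500 bp, and 80 between 500 and 1000 bp. The class from 250 to 500 bp was the smallest of these classes on each chromosome, at 0.448% of the distances on IV and 0.619 to 1.46% elsewhere. On II it was not far below the class of at most 250 bp, with 15 distances against 21. Merging overlapping regions turned the 893 sites into 876.

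**Figure D2:**
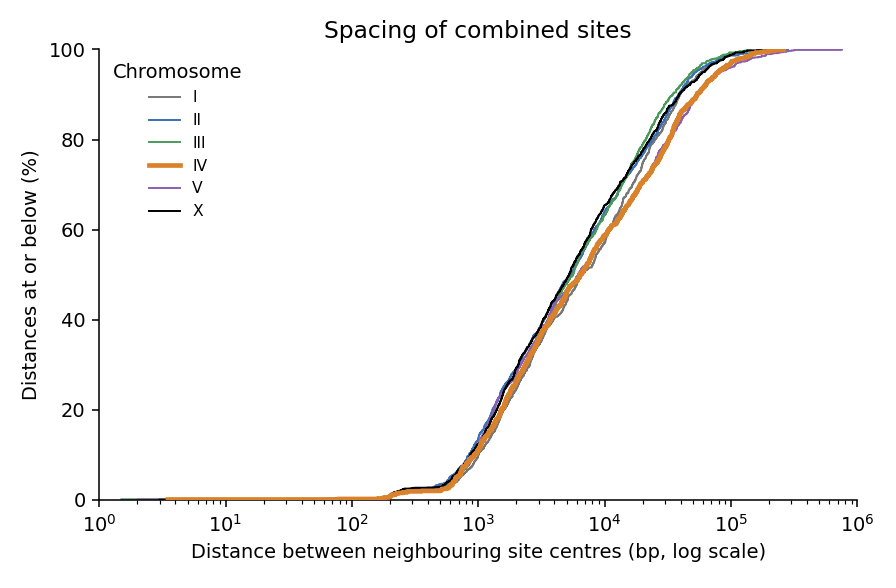
Cumulative share of the distances between neighbouring site centres, in percent, against distance in bp on a log scale, with 1 line for each nuclear chromosome and chromosome IV drawn thick. The lines run together below about 5 kb. At 20 kb and at 100 kb those of IV and V lie to the right of the other 4, with 29.6% and 29.5% of distances over 20 kb. At the far end the line of II reaches past that of IV, to 283013 bp against 262738 bp.

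Sites joined by steps of at most 1 kb formed short runs: 66 pairs, 10 runs of 3 and 4 runs of 4, with 715 sites in no run. The strongest run of 4 lay at IV:3231791-3234722, with peak numbers from 464 to 2853. The others lay at IV:11700159-11702754 (637 to 3764), IV:14612132-14614410 (835 to 6084) and IV:8232120-8234258 (3526 to 5173). Each mixed sites of very different rank, or weak ones. Among the runs of 3 the one with the best site was IV:8431621-8433091, with peak numbers from 103 to 2874.

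The densest 20 kb window, IV:11897914-11917913, held 11 sites. From left to right they carried combined numbers 1687, 1394, 1793, 2944, 4517, 6151, 4807, 2839, 3120, 4119 and 3793. Each of the 11 was found in both replicates, whose full lists had 18 and 20 peaks there. The best site of the window thus came after more than 1000 sites of the list, and the sixth was among its last. Chromosome III also had a densest window of 11 sites, and the other 4 chromosomes had 13 to 17.

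The next windows differed in strength. IV:8232309-8252308 held 10 sites with a median number of 4850, and none of them was in the strongest part of the list. IV:11489812-11509811 held 9, again with none in the strongest part, and it contained the weakest site of the whole combined list. IV:14085842-14105841 held 9 sites, the best being number 301. Of the strongest 6142 peaks, this window had 11 from replicate 1 and 5 from replicate 2, the widest gap between the replicates among the 6 windows. IV:4017846-4037845 and IV:4390657-4410656 held 8 each, and the latter included number 120 and had a median of 2176, below the 3056 of the chromosome. In these 6 windows 7 of 55 sites (12.7%, 5.27 to 24.5) were in the strongest part, against 25.8% on the chromosome. The windows were picked for their counts, so this is a description.

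**Figure D3:**
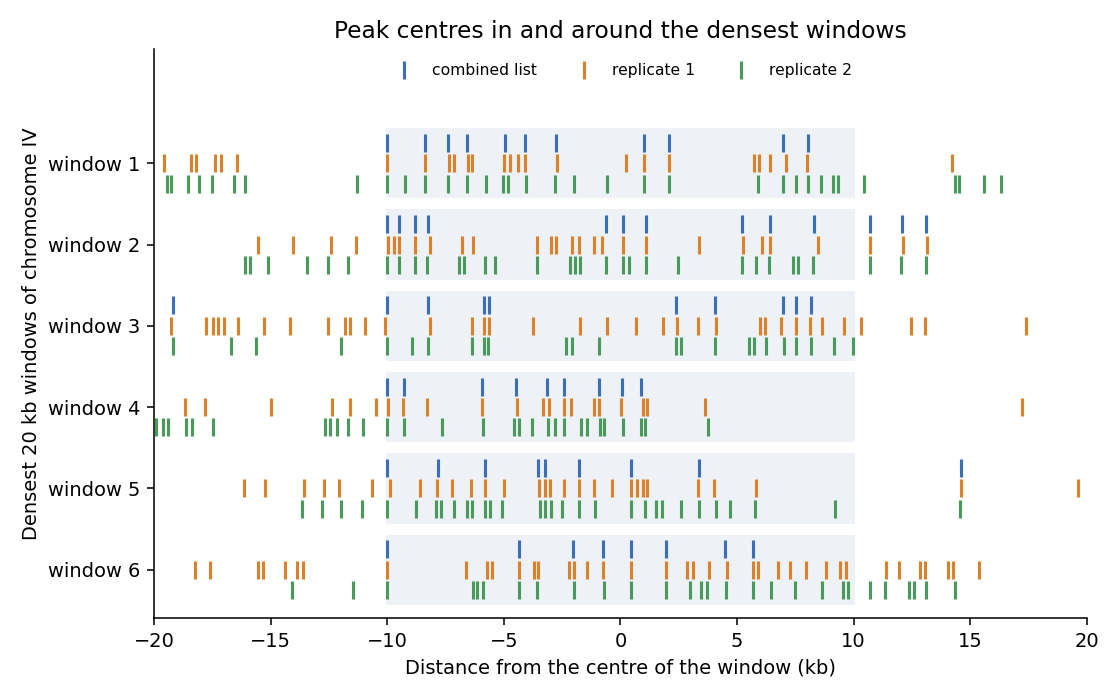
Centres of peaks in and around the 6 densest 20 kb windows of chromosome IV, by distance in kb from the centre of the window, with 1 row of ticks each for the combined list and the full lists of replicates 1 and 2. Shading marks the 20 kb. Window 1 holds 11 combined sites and 18 and 20 replicate peaks, and in window 4 the ticks of the combined list end just right of the centre.

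At a broader scale, 24 of the 174 full windows of 100 kb held 10 sites or more, and the median was 4. The fullest was IV:11500001-11600000 with 18 sites, 75 peaks of replicate 1 and 62 of replicate 2. IV:4400001-4500000 and IV:11900001-12000000 had 15 sites each. The fullest such window of each other chromosome held 19 to 32.

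Sparse stretches gathered toward the right end. Of the 174 windows, 10 (5.75%) held no combined site, and 6 of these 10 were in the right part of the chromosome, 3 in the left and 1 in the centre. Each of the 10 had at least 1 peak of replicate 1, and 7 had none of replicate 2. The share of empty windows was 15.8% on V, 7.89% on II and 1.33 to 2.82% on the other 3.

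The longest distance between neighbouring sites was 262738 bp, with nothing in the combined list from 15039787 to 15302231. Replicate 1 had 21 peaks in it, the best with number 4372, and replicate 2 had 7, the best with number 10173. Peaks were therefore present, at 80.0 and 26.7 per Mb against 260 and 218 on the chromosome as a whole.

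The second stretch, from 6100151 to 6321760, lay in window 7 and ended beside a strong region. Its right border was a site with number 224, and the sixth strongest site of the chromosome, IV:6323713-6323998, came just after it. Inside were 17 peaks of replicate 1 and 1 of replicate 2. Then came the stretches from 16656527 to 16863598, with 14 and 7 replicate peaks, and from 15702267 to 15901063, with 16 and 6.

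The fifth stretch, from 4880921 to 5063393, was the emptiest, with 2 peaks of replicate 1 and none of replicate 2. The sixth ran from 13509169 to 13682778 and had 15 and 9. Its best peak, number 3950 of replicate 1, had the lowest number of any replicate peak in the 6 stretches. In each of the 6, both replicates had fewer peaks per Mb than their chromosome average, at most 86.4 in replicate 1 and 51.8 in replicate 2. The combined list was made from the replicates, so this too is in large part built in.

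Isolated sites were few. Of the 893 sites, 13 (1.46%, 0.777 to 2.48) had no neighbour within 50 kb, against 1.01% (0.757 to 1.32) elsewhere. Their median peak number was 1652, and 5 of the 13 were in the strongest part (38.5%, 13.9 to 68.4), an interval that takes in the 25.8% of the whole chromosome. The corresponding median elsewhere was 3394, over 53 sites, with 20.8% in the strongest part (10.8 to 34.1), and the intervals overlap. The strongest isolated site was IV:16656291-16656526, number 392 (426 and 447 in the replicates), which stood 154328 bp from its nearest neighbour, at the edge of the third longest empty stretch. IV:519519-519719, number 748, and IV:10483812-10483988, number 924, followed.

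Rank was also set beside spacing at shorter distances, where the shares in the strongest part did not follow the distance in order. The 70 sites with a nearest neighbour at 20 to 50 kb had a median number of 2739, with 31.4% in the strongest part (20.9 to 43.6). The 206 chromosome IV sites whose nearest neighbour was 5 to 20 kb away had a median number of 2616, with 32.5% in the strongest part (26.2 to 39.4). The 426 sites with a neighbour at 1 to 5 kb had 3238 and 21.6% (17.8 to 25.8). The 178 sites with a neighbour within 1 kb had 3382 and 24.7% (18.6 to 31.7). Elsewhere the share was 20.8% for sites with no neighbour within 50 kb (10.8 to 34.1), the lowest of the 5 classes, and 26.9%, 25.1%, 25.8% and 22.3% in the other 4, from 20 to 50 kb down to within 1 kb. Neither the differences between the classes nor the difference from the other chromosomes was tested.

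The listed width of a site went with its rank. Over the chromosome, widths ran from 95 to 1264 bp, and 535 of 893 sites (59.9%) had exactly 380 bp. Among sites numbered 1 to 500 none of 69 had that width, and the 59 narrower ones had a median of 282 bp. The narrower sites then became narrower with falling rank, with medians of 233, 184.5, 162 and 151 bp in the next steps of 500 numbers up to 2500. The fixed width took over in turn, and among numbers 4001 to 4500 it was found at 68 of 70 sites. The other chromosomes had the same course, with medians of 274, 221, 190.5, 166 and 148 bp. Width was thus tied to place in the list, and no size of a bound stretch was taken from it.

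Sites wider than 380 bp numbered 17 (1.90%, 1.11 to 3.03), against 3.28% (2.81 to 3.79) elsewhere. The widest, IV:14032954-14034217 with 1264 bp, was listed under numbers 815 and 5302, and was 1 of the 2 regions entered more than once. The other was IV:8793279-8793657, under numbers 544 and 4421. The next widest were IV:8527465-8528044 (580 bp, number 648) and IV:8795042-8795593 (552 bp, number 3461).

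**Figure D4:**
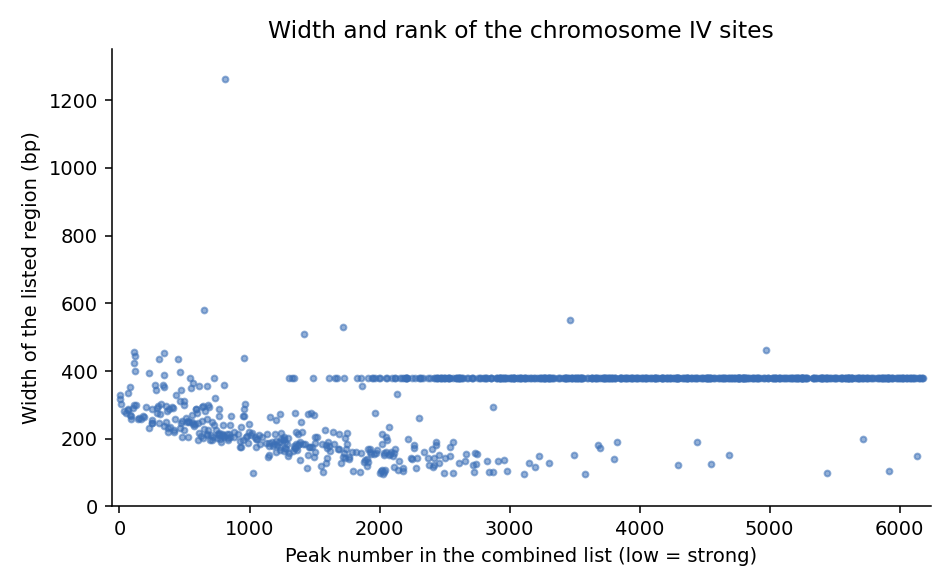
Listed width in bp of each of the 893 chromosome IV sites against its peak number in the combined list, low numbers being strong. The narrower points fall from a median of 282 bp among numbers 1 to 500 to 151 bp among numbers 2001 to 2500, while from about number 1300 on a growing share lies on the line at 380 bp.

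The replicates were compared site by site. The combined list was made from them, so agreement is in large part built in. Of the 893 sites, 884 (99.0%, 98.1 to 99.5) overlapped a peak of both replicates by at least 1 bp. On the other chromosomes this share was 98.4% (98.0 to 98.7), and among the 6 chromosomes IV had the highest, with 97.9% on I the lowest. The intervals overlap. Replicate 1 alone had 6 of the sites and replicate 2 alone had 3. The strongest of these was IV:6376618-6376827, number 1015, which was number 836 in replicate 1 and had no peak in replicate 2. It was followed by IV:8869624-8870003 (number 2673), IV:4277700-4278079 (4791) and IV:11371620-11371999 (4812), each in replicate 1 alone, and by IV:8036448-8036827 (5219), in replicate 2 alone.

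Peak numbers of the replicates rose together over the 884 sites (Spearman rho 0.644, a description across sites that were selected on ranks). The rho of the other chromosomes ran from 0.603 to 0.657. Of the first 100 chromosome IV sites by replicate 1, 64 were in the first 100 by replicate 2. A site moved by a median of 131 places out of 884. In some cases 1 replicate peak served several sites, which then share its number: 34 sites shared a replicate 1 peak and 32 a replicate 2 peak.

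The largest shifts of place went both ways. IV:16327707-16327841 was place 128 in replicate 1 and 814 in replicate 2. IV:874683-875062 was place 161 and 833, and IV:2390358-2390737 was place 179 and 791. In the opposite direction, IV:10252434-10252813 was place 858 in replicate 1 and 236 in replicate 2, and IV:5966929-5967308 was place 800 and 219. All 5 carried middling combined numbers, from 2456 to 3325.

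**Figure D5:**
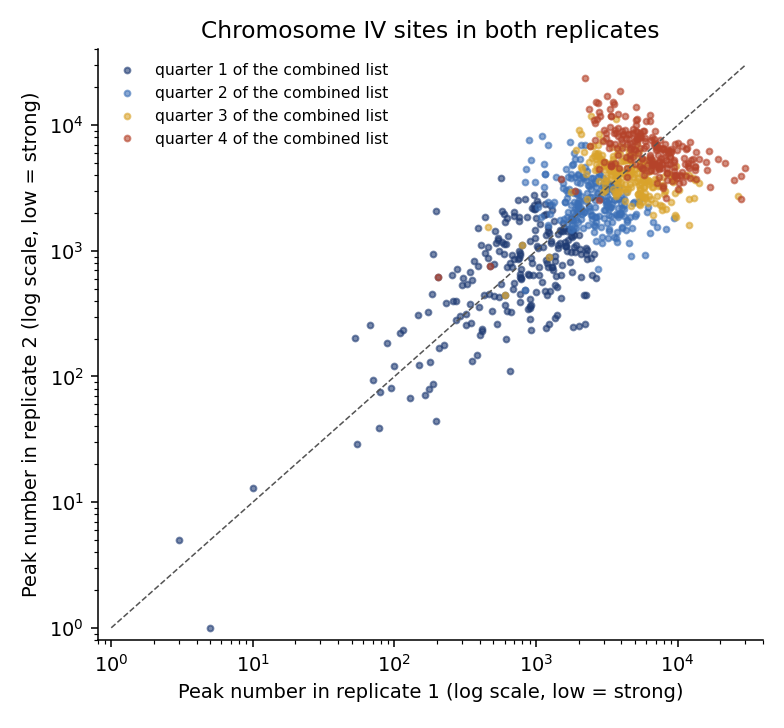
Peak number in replicate 2 against peak number in replicate 1, both on log scales, for the 884 chromosome IV sites found in both, coloured by the 4 equal parts of the combined list. Points follow the dashed line of equal numbers, with a rho of 0.644, and those of the weakest part lie mostly toward the upper right.

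The matched replicate peaks lay farther apart at weak sites, although matching by overlap limits how far apart they can be. Each site was paired with the best-numbered overlapping peak, not the nearest. Weak regions were also wider, with medians of 238.5, 368, 380 and 380 bp from the strongest part of the list to the weakest. How much the pairing and the width add to the distances was not tested. The median distance between the centres of the 2 replicate peaks was 17.5 bp for the strongest of the 4 parts of the list, then 31, 38 and 56 bp. Within 100 bp lay 96.5%, 95.0%, 87.6% and 72.8% of the sites in these parts. The last 4 sites of the combined list had unlike numbers in the replicates. IV:11506585-11506964, the last site of the combined list with number 6178, was number 9602 in replicate 1 and 7021 in replicate 2. IV:11578279-11578658 (6174) was number 13225 and 4702, and IV:5334543-5334922 (6167) was number 16590 and 6258. IV:5130815-5131194 (6159) went the other way, at 4576 and 8439.

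Recovery of the replicate peaks themselves fell with rank on chromosome IV as it did elsewhere. Of the 145 chromosome IV peaks among the first 1000 of replicate 1, 144 overlapped a replicate 2 peak and 145 a combined site. For numbers 1001 to 5000 the shares were 95.5% and 86.1%. For numbers 5001 to 10000 they were 74.6% and 31.7%, and for numbers over 20000 they were 31.6% and 2.77%. Between numbers 10001 and 20000, 6.12% of the chromosome IV peaks of replicate 1 overlapped a combined site (4.96 to 7.46), against 7.76% elsewhere (7.20 to 8.34). In replicate 2 the same class had 5.65% (4.56 to 6.92) and 5.62% (5.14 to 6.13). Over the full lists, 54.3% of replicate 1 peaks on chromosome IV (52.9 to 55.8) overlapped replicate 2, and 64.6% of replicate 2 peaks (63.1 to 66.1) overlapped replicate 1.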

How the data were processed

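Peak lists of the 2 ChIP replicates and 1 combined list were used. Per the file headers, coordinates follow WormBase build WS220. The source field of every deposited row reads as SPP via IDR, that is, the SPP peak caller followed by the irreproducible discovery rate procedure. Versions, settings and the way of combining the replicates are not stated in those files. The deposited score has no stated scale, is 1 constant value in the combined list and has a ceiling in each replicate list. The authors' peak number was therefore used for order.

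Rows with the same start and end were counted once, under their best number. A site was matched to the best-numbered replicate peak sharing at least 1 bp. Chromosome lengths were taken as the end of the last peak in any list. Densities were compared with exact two-sided conditional binomial tests, Benjamini-Hochberg adjusted over 3 tests, and shares have exact (Clopper-Pearson) 95% intervals. Both cover counting error only and take sites as independent. P-values measure no spread between replicates, which may be technical. Sites were named by a rule: the 12 strongest, the last 4, the 6 densest 20 kb windows, the 6 longest distances, the 5 strongest missing from a replicate, the 5 largest shifts of place, and the 5 strongest replicate peaks without a combined site. The runs within 1 kb, the fullest 100 kb windows, the isolated sites, the widest sites and the regions listed more than once were added after their values were seen. No gene was named, because the gene table used here follows assembly WBcel235. Members and lists were chosen with earlier results of these data known. The calculations were tested on simulated lists. Scripts ran in Python 3.11.15, with scipy 1.17.1 for the tests, pandas 2.3.3 and numpy 2.4.6 for the tables, and matplotlib 3.10.9 for the figures.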

Additional observations from a re-analysis of the deposited data

How the results depend on the processing

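Under 40 alternatives, 10 results were computed again, and 31 kept their direction and side of the threshold, or their value. The density ratio of chromosome IV ran from 0.792 to 0.827 and the central to outer ratio from 1.35 to 1.62, past the threshold under each of the 6 alternatives tried for them. The left to right ratio ran from 1.14 to 1.5 and lost its call when the chromosome was cut once, at its midpoint (ratio 1.14, exact binomial p = 0.0609). The share of sites in both replicates was 74.9% with reciprocal 50% overlap, 92.0% with centres within 100 bp and 99.6% in the stronger 50% of the combined sites. A neighbour within 1 kb was found for 16.6% after merging, which removes overlapping neighbours by construction, and for 11.1% in the stronger 50%, which has fewer sites. Leaving out a replicate meant taking the 6142 strongest peaks of the other. The median spacing was then 6031 to 7210 bp, the share with a neighbour within 1 kb 17.7% to 22.3%, the share in the strongest part 24.7% to 25.8%, the number of empty 100 kb windows 12 either way and the densest window 11 sites either way. The rank correlation was -0.0545 with the authors' score, most of whose values sit at a ceiling (71.5% of the sites in replicate 1 and 98.1% in replicate 2), and 0.582 in the stronger 50%. No paired analysis was possible because the shared numbers tie ChIP to Input, which was not analysed here. With the depth unknown, a site missing from a list may be unbound or merely unseen.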

Other observations

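Some peaks that ranked well in both replicates had no combined site. On chromosome IV, 219 pairs of overlapping replicate peaks had numbers up to 2000 in both lists, and 4 of these pairs (1.83%, exact 95% interval 0.50 to 4.61) had no combined region over them. On the other chromosomes this was so for 4 of 1216 pairs (0.329%, 0.0897 to 0.840), and the intervals overlap. With numbers up to 3000 the counts were 6 of 321 and 16 of 1885. With numbers up to 1500 they were 2 of 157 and 4 of 927. With numbers up to 1000 they were 0 of 102, with an exact 95% upper bound of 3.55%, and 1 of 613. The limits were set after the values were seen, and the difference was not tested.

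One such region lay at IV:9647803-9648186, number 1395 in replicate 1 and 1203 in replicate 2, with the nearest combined site 14722 bp away. IV:5731572-5731955 was number 1381 in replicate 1 and 1229 in replicate 2, and there the replicate 2 region was 96 bp wide. IV:8379308-8379691 was number 1210 and 1683, and IV:14959455-14959838 was number 1331 and 2519. IV:9147065-9147205 of replicate 2 was number 1322, with number 1764 in replicate 1, and IV:6631804-6632167 of replicate 2 was number 1677, with number 2389 in replicate 1. Single-replicate peaks of like rank were IV:10129022-10129405 (number 1462 in replicate 1) and IV:6887665-6888028 (number 1225 in replicate 2). These regions were picked as the strongest without a combined site. Numbers below the medians of the chromosome IV combined sites, 3104 in replicate 1 and 3089 in replicate 2, follow largely from that choice.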
